A study of Mus musculus with 3 samples.

Results

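The 43 genes described here belong to the ATF4 branch of the integrated stress response, to the unfolded protein response of the endoplasmic reticulum (ER) and to the cytosolic aminoacyl-tRNA synthetases. They were chosen by symbol, and all 43 matched 1 of the 50043 gene IDs of the deposited table. By role they divide into 15 genes of the ATF4 branch, 4 kinases of the initiation factor eIF2-alpha, 12 genes of the ER branch and 12 synthetases. RNA came from KH2 cells, a mouse embryonic stem cell line, in which the knockout of Pold3 can be induced; Pold3 encodes a subunit of the replicative DNA polymerase delta. The 3 libraries, 1 each, are named for passages P0, P1 and P2; every library comes from the same inducible line, and the labels give no inducing agent and no time of induction. Since every passage is a single library, differences have no check by replicates and no p-values are printed.

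When eIF2-alpha is phosphorylated, general translation falls while translation of the transcription factor ATF4 rises, because its message carries short upstream reading frames. ATF4 pairs with C/EBP family proteins and binds composite elements (CARE) at genes for amino acid supply, tRNA charging and stress signalling. A separate arm, run by ATF6 and by the spliced form of XBP1, reads unfolded protein in the ER lumen and acts through ER stress elements (ERSE) at chaperone genes.

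At P2 against P0 the ATF4 branch, the ER branch and the synthetases gave different patterns. Atf4 itself and a set of its known targets fell, all 12 synthetases were lower by a modest amount, and most ER chaperone genes were somewhat higher. The promoter motifs through which these branches are known to act are shown first, and the levels of each branch follow.

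The promoter windows ran from 250 bases before to 50 bases after the RefSeq transcription start of each gene (build GRCm38.p6), and 37 of the 43 members matched one by symbol. The CARE core was searched as TGATGNAA, the ERSE as CCAAT, any 9 bases and CCACG, and the unfolded protein response element (UPRE) as TGACGTGG, all on both strands. The ERSE ends in the letters CCACG, with which the opposite strand of the UPRE begins. The UPRE stood in 0 of the 37 members with a window and in 0.714% of all 27025 genes with one. The CARE core stood in 7 of 15 ATF4 branch genes, 5 of 7 synthetases with a window and 1 of 11 ER genes, against 4.51% of all genes. The ERSE stood in 4 of 11 ER genes and in 0 members of the other lists, against 0.137% of all genes. These matches are letters in a window and do not show binding.

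Stretches around CARE cores that lie before the start are given for 8 members that were lower at P2, and for Atf3, which rose, in the sense of the gene, with the match in capitals (TTGCATCA and the like read the core on the opposite strand).
Chac1, chr2:119351024-119351081, plus strand: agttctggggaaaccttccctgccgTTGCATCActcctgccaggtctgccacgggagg
Pck2, chr14:55540138-55540195, plus strand: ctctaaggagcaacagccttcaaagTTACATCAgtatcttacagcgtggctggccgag
Nupr1, chr7:126625562-126625591, minus strand: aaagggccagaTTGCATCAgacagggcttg
Asns, chr6:7693214-7693243, minus strand: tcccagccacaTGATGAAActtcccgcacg
Vldlr, chr19:27216809-27216838, plus strand: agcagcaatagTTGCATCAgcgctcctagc
Herpud1, chr8:94386292-94386349, plus strand: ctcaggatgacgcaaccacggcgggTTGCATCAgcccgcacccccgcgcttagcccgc
Gars, chr6:55037946-55038000, plus strand: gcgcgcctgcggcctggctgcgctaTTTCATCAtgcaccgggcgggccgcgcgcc
Tars, chr15:11399659-11399684, minus strand: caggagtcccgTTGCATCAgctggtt
Atf3, chr1:191183411-191183468, minus strand: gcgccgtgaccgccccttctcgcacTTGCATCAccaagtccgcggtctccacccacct
In Trib3, Iars and Yars the core lay within 22 bases after the start.

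The ERSE stretches are given for the 4 ER members that hold them. All 4 were higher at P2 than at P0, as were 9 of the 12 ER members and 57.7% of all genes compared.
Hspa5, chr2:34772020-34772048, plus strand: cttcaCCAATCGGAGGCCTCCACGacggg
Calr, chr8:84847050-84847118, minus strand: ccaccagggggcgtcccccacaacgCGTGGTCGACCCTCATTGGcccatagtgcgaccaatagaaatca
Creld2, chr15:88819495-88819563, plus strand: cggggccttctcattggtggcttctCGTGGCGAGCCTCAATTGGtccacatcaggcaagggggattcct
Hsp90b1, first match, chr10:86705613-86705681, minus strand: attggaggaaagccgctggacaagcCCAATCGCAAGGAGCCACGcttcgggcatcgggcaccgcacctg
Hsp90b1, second match, chr10:86705528-86705556, minus strand: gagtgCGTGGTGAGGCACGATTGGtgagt

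**Figure D1:**
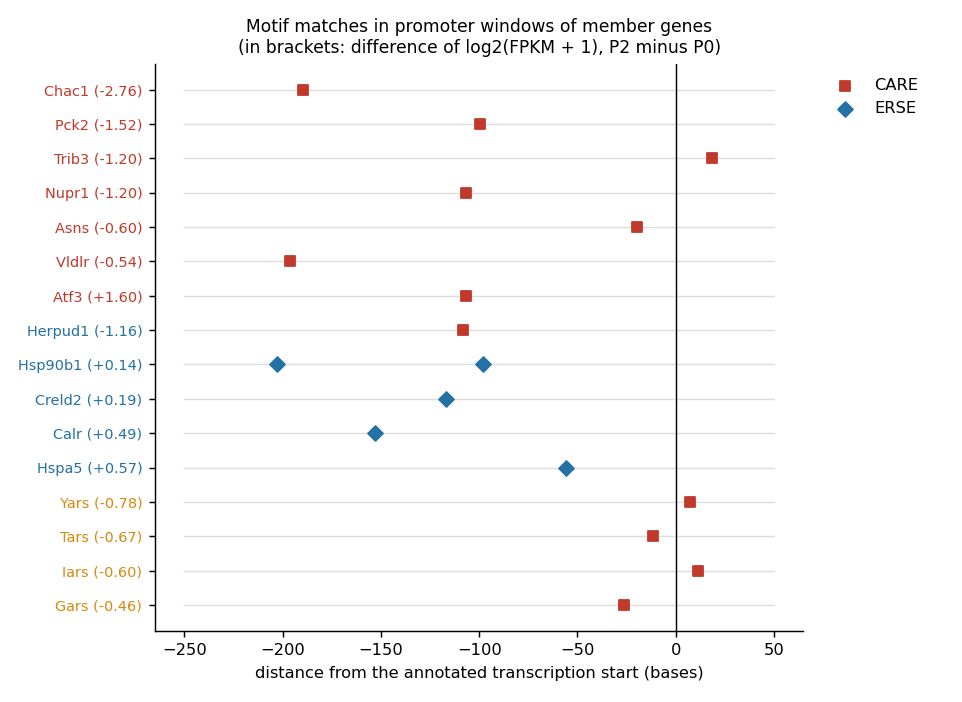
Position of each CARE core (red squares) and ERSE (blue diamonds) in the promoter windows of the 16 member genes shown, in bases from the annotated start, with the P2 minus P0 difference of log2(FPKM + 1) in brackets; gene names are red for the ATF4 branch, blue for the ER branch and orange for synthetases. The only gene shown with a CARE core and a positive difference is Atf3 (1.60), and the 4 genes with an ERSE all have positive differences, between 0.14 and 0.57. Of all genes compared, 57.7% were higher at P2 than at P0 and 42.3% lower.

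Levels are FPKM, reads per kilobase of gene and per 1000000 reads of the library, as deposited. Library totals recovered from these values were 23213528, 18059914 and 22405670 reads at P0, P1 and P2. Ratios of FPKM carry exact 95% intervals on the recovered reads, which cover counting error only and compare libraries, not conditions. A gene is said to have risen or fallen when log2(FPKM + 1) differed by at least 1 and either library reached an FPKM of 1; this scale understates the change of low genes. Of the 43 members, 42 had FPKM of at least 1 in every library, and Vldlr was below it in all 3. Pold3 measured 49.2, 13.0 and 11.6 FPKM at P0, P1 and P2. The embryonic stem cell markers Pou5f1, Nanog and Sox2 were at 165 FPKM or more in every library, and the 12 markers listed for these cells summed to 4845 to 5171 FPKM. Singly, 5 of the 12 were higher and 7 lower at P2 than at P0, where 42.3% of all genes were lower. The ratios of P2 to P0 ran from 0.535 (Esrrb, 221, 127 and 118 FPKM) to 1.46 (Fgf4, 113, 146 and 165 FPKM). Other markers moved with passage as well. Those of trophoblast (10 listed) summed to 73.3, 118 and 157 FPKM at P0, P1 and P2, mostly from Tfap2c, Krt8 and Krt18. All 9 trophoblast markers compared were higher at P2 than at P0, where 57.7% of all genes were. Those of endoderm (10 listed) summed to 177, 331 and 416 FPKM, mostly from Sparc and Col4a1. Of the 7 endoderm markers compared at P2 against P0, 6 were higher, where 57.7% of all genes were. The other, Lama1, was lower (15.9, 11.4 and 8.73 FPKM). The 17 fibroblast markers summed to 77.7 to 100.1 FPKM, mostly from Vim (83.7, 44.3 and 58.3 FPKM), with Postn and S100a4 at 0 throughout. Of the 7 fibroblast markers compared, 3 rose at both P1 and P2, where 4.12% and 6.72% of all genes rose. These were Col1a1 (1.98, 5.63 and 7.09 FPKM), Thy1 (4.21, 9.83 and 11.0 FPKM) and Timp3 (1.80, 6.27 and 5.88 FPKM). At P2, 5 of the 7 were higher than at P0, where 57.7% of all genes were, and 2, Vim and Loxl1, were lower. The median difference of the 7 at P2 was 0.82, against 0.07 over all genes. The 8 neuroectoderm markers summed to 157, 175 and 214 FPKM at P0, P1 and P2, mostly from Tubb3 (119.9, 125 and 175 FPKM). Of the 7 compared, 1 rose and 2 fell at P1, where 4.12% and 0.549% of all genes did. At P2, 1 rose and 1 fell, where 6.72% and 1.16% did. Neurod1 rose at both (2.51, 9.21 and 8.65 FPKM). Sox1 (1.91, 0.401 and 0.887 FPKM) and Pax6 (4.35, 1.42 and 2.14 FPKM) fell at P1. Sox11 (5.997, 4.33 and 2.37 FPKM) fell at P2. The part of these other markers in the results below was not tested. In bulk RNA, fewer cells of a type and less RNA per cell cannot be told apart.

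At P1 against P0, 2 members rose and 3 fell, where 4.12% of 13288 genes compared rose and 0.549% fell. At P2 against P0, 2 rose and 7 fell, where 6.72% of 13472 genes rose and 1.16% fell. At P2 against P1, 0 members rose and 0 fell at the threshold, where 0.78% and 0.883% of 13585 genes did. The 2 comparisons with P0 share that library.

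**Figure D2:**
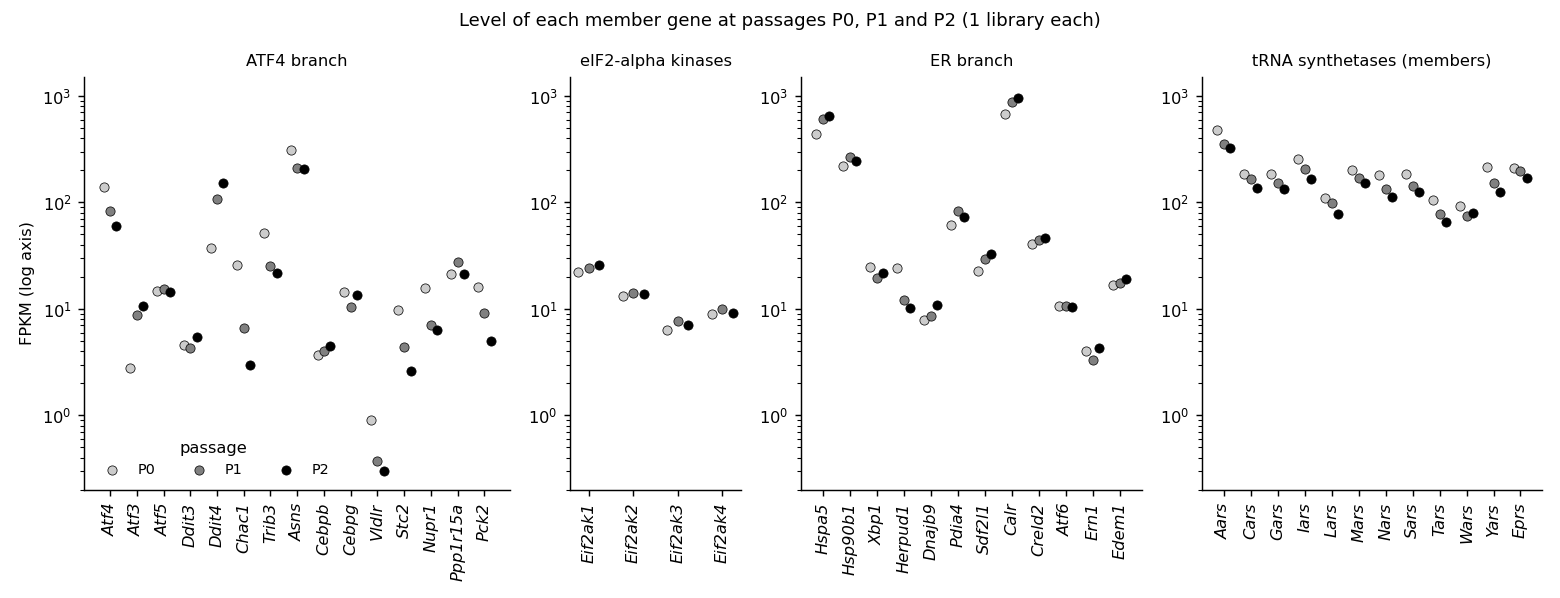
FPKM (log axis) of the 43 member genes at P0 (light grey), P1 (dark grey) and P2 (black), 1 point per library, by branch. Chac1 descends by the largest step in the ATF4 branch, Ddit4 and Atf3 ascend, and each of the 12 synthetases has its P0 point on top.

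In the ATF4 branch, the regulator and 5 of its known targets fell by P2. Atf4 measured 141, 82.9 and 60.5 FPKM at P0, P1 and P2, so that the level was lower in each later library. The ratio of P2 to P0 was 0.430 (interval 0.407 to 0.455), and that of P2 to P1 was 0.730 (interval 0.684 to 0.779). Chac1, which encodes a glutathione-degrading enzyme, measured 25.9, 6.56 and 2.97 FPKM, from 985, 194 and 109 reads, and was 8.72-fold lower at P2 (interval 7.15 to 10.7). It had the largest difference of all 43 members, and P2 was below P1 as well (ratio 0.453, interval 0.355 to 0.576).

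Stc2, a secreted glycoprotein gene induced under ER stress, measured 9.72, 4.36 and 2.64 FPKM. It was 3.69-fold lower at P2 than at P0 (interval 2.98 to 4.59). Pck2, the mitochondrial phosphoenolpyruvate carboxykinase, measured 16.1, 9.17 and 4.99 FPKM and was 3.23-fold lower at P2 (interval 2.88 to 3.64). Both genes stepped down at each passage, and the ratios of P2 to P1 were 0.605 (interval 0.468 to 0.778) for Stc2 and 0.544 (interval 0.476 to 0.621) for Pck2.

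In 3 further targets most of the difference was already present at P1. Trib3, a pseudokinase that feeds back on ATF4 signalling, measured 51.2, 25.1 and 21.7 FPKM, with a ratio of P2 to P1 of 0.865 (interval 0.762 to 0.982). Nupr1, a small stress-induced chromatin protein gene, measured 15.8, 6.99 and 6.35 FPKM, and its P2 level was 0.908 of its P1 level, with 1 inside the interval (0.697 to 1.18). Asns, asparagine synthetase, measured 312, 211 and 206 FPKM; it stayed inside the threshold (difference -0.60 at P2), and its ratio of P2 to P0 was 0.661 (interval 0.636 to 0.686). Trib3 and Nupr1 fell at P1 already, as Chac1 did. At P1 Trib3 was just past the threshold and Stc2 just short of it.

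Vldlr, a lipoprotein receptor gene, was too low for the comparison, at 0.897, 0.372 and 0.3002 FPKM from 65, 21 and 21 reads. Its ratio of P2 to P0 was 0.335 (interval 0.194 to 0.555).

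The rises in this branch were in 2 genes that are also known to respond to p53 and other stresses. Ddit4, which encodes the mTORC1 inhibitor REDD1, measured 37.3, 107 and 152 FPKM, and its ratio of P2 to P0 was 4.09 (interval 3.86 to 4.33). Atf3, a transcription factor gene that ATF4 can induce, measured 2.82, 8.78 and 10.5 FPKM, with a ratio of 3.74 (interval 2.98 to 4.75). Each was thus highest at P2, the opposite order to Atf4.

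The other members of the branch showed no called difference. Ddit3, which encodes the ER stress factor CHOP, measured 4.62, 4.25 and 5.39 FPKM, and its ratio of P2 to P0 had an interval of 0.866 to 1.57. Its exons overlap those of Mars on the opposite strand by 68 bases, and reads of the 2 genes cannot be told apart there since the strand of the libraries is not given. Atf5, a factor translated under the same control as ATF4, measured 14.8, 15.3 and 14.5 FPKM and shares 82 exon bases with the more abundant Nup62 on the opposite strand. Ppp1r15a, the stress-induced subunit of the eIF2-alpha phosphatase, was highest at P1, at 27.3 FPKM, with 21.2 at P0 and 21.03 at P2. Cebpg, a dimer partner of ATF4, was lowest at P1, at 10.4 FPKM, with 14.5 at P0 and 13.4 at P2, and Cebpb, another partner, measured 3.67, 4.01 and 4.51 FPKM. Cebpb shares 312 exon bases with Tmem189 on the opposite strand, so its low values are uncertain. For Atf5, Ppp1r15a, Cebpg and Cebpb the interval of the P2 to P0 ratio held 1. Over the 14 genes compared, the median difference was -0.35 at P2 against P0, where that of all genes compared was 0.07. It lies midway between Cebpg (-0.11) and Asns (-0.60), with no member near it, and moved to between -0.60 and -0.54 with a floor of FPKM 5, with no floor, after rescaling to a sum of 1000000 and after quantile normalization.

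The 4 kinases that phosphorylate eIF2-alpha differed little in message level, which says nothing of their activity. Eif2ak4 (GCN2, which senses uncharged tRNA) measured 8.99, 9.94 and 9.22 FPKM, and the ratio of P2 to P0 was 1.03 (interval 0.927 to 1.13). Eif2ak3 (PERK, the ER stress kinase) measured 6.30, 7.63 and 7.11 FPKM, with a ratio of 1.13 (interval 0.956 to 1.33). Eif2ak2 (PKR, activated by double-stranded RNA) measured 13.3, 14.0 and 13.7 FPKM. Eif2ak1 (HRI, the haem-regulated kinase) measured 22.1, 24.2 and 25.8 FPKM and was the 1 kinase whose P2 to P0 interval lay above 1 (1.08 to 1.26), where 39.7% of all genes compared did. It shares 487 exon bases with Aimp2 on the opposite strand, which was more abundant and highest at P2 (40.4, 47.2 and 55.7 FPKM). Reads of these 2 genes cannot be told apart there, so the values of Eif2ak1 are uncertain. At P1 all 4 kinases were above P0, where 57.6% of all genes were, and 2 had intervals above 1, where 34.5% did; 3 of the 4 were above P0 under median-of-ratios scaling and under quantile normalization. At P2 all 4 were above P0 as deposited, where 57.7% of all genes were. Under median-of-ratios scaling and under quantile normalization 2 of the 4 were. The median difference of all genes under these scalings was -0.05 and -0.04 at P1, and -0.05 under both at P2.

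**Figure D3:**
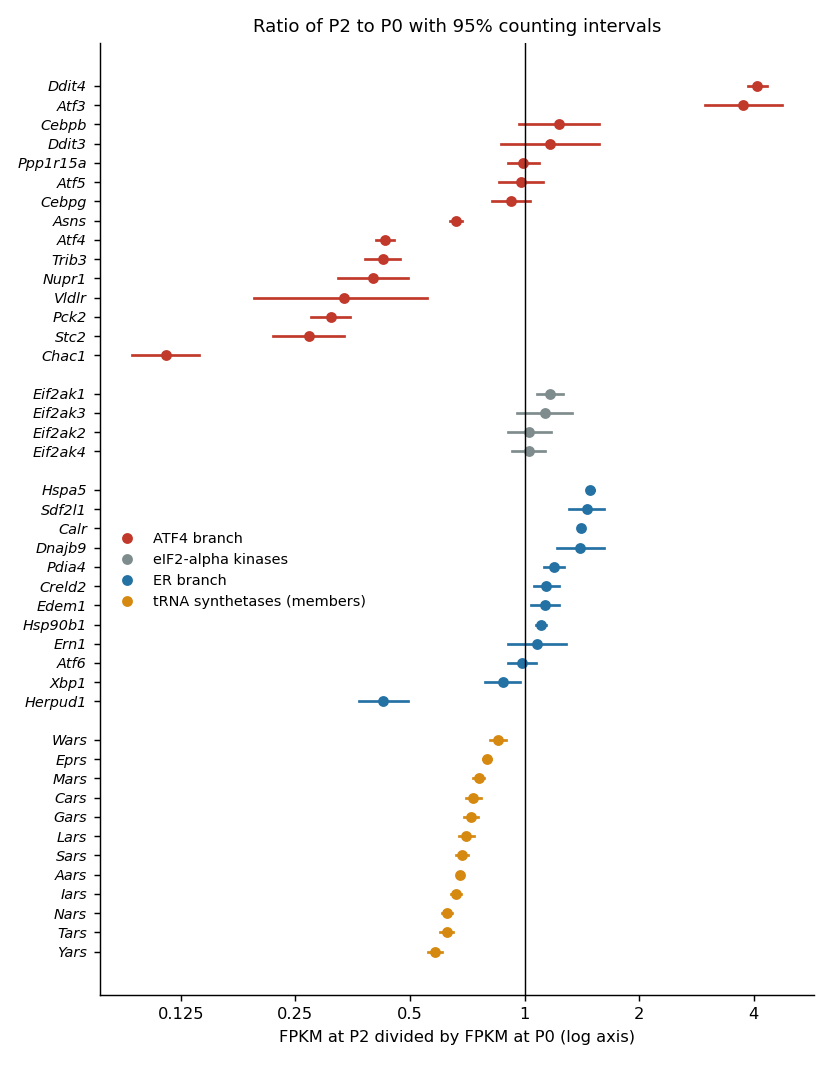
FPKM at P2 divided by FPKM at P0 (log axis) for all 43 members, sorted within each branch, with 95% counting intervals as bars and a line at 1. The ATF4 branch spreads from 0.115 (Chac1) to 4.09 (Ddit4), 11 of 12 ER genes lie between 0.875 and 1.49 with Herpud1 apart at 0.425, and all 12 synthetases lie below 1.

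In the ER branch, the abundant lumenal chaperones were higher at both later passages. Hspa5, which encodes BiP, the main ER Hsp70, measured 434, 604 and 647 FPKM, and the ratio of P2 to P0 was 1.49 (interval 1.46 to 1.52). Calr, the lectin chaperone calreticulin, measured 681, 875 and 958 FPKM, with a ratio of 1.41 (interval 1.38 to 1.43). Both were highest at P2 and neither reached the threshold, since their differences were 0.57 and 0.49.

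Sdf2l1, an ER partner of BiP, measured 22.6, 29.2 and 32.9 FPKM, with a ratio of P2 to P0 of 1.46 (interval 1.31 to 1.62). Dnajb9, a BiP co-chaperone that acts on the sensor IRE1, measured 7.81, 8.49 and 10.9 FPKM, with a ratio of 1.40 (interval 1.21 to 1.62). Pdia4, a protein disulfide isomerase, and Hsp90b1, the ER Hsp90, were highest at P1. Pdia4 measured 61.4, 82.3 and 73.3 FPKM and Hsp90b1 221, 266 and 244 FPKM. Creld2, an ER protein gene induced by ATF6, measured 40.8, 44.8 and 46.6 FPKM, and Edem1, which directs misfolded glycoproteins to degradation, 16.6, 17.4 and 18.9 FPKM.

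The sensors of this arm were nearly level at P2 against P0, and the factor Xbp1 was lower. Atf6 measured 10.5, 10.7 and 10.4 FPKM, and Ern1, which encodes IRE1, 4.02, 3.35 and 4.33 FPKM; the P2 to P0 intervals of both held 1. Xbp1 measured 24.8, 19.5 and 21.7 FPKM and was lower at P2 than at P0 (ratio 0.875, interval 0.785 to 0.975). It was lowest at P1, where its ratio to P0 was 0.787 (interval 0.698 to 0.886). Gene-level values do not separate the spliced form of its message.

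Herpud1, a component of ER-associated degradation, was the 1 ER gene that fell. It measured 23.9, 12.1 and 10.2 FPKM and was 2.35-fold lower at P2 than at P0 (interval 2.03 to 2.73). It was also the 1 ER member whose window held a CARE core, and it is known to be induced through ATF4 as well as through the ER stress arm. Whether ATF4 had a part in the lower level of Herpud1 was not tested. Of the 12 ER genes, 8 had a P2 to P0 interval above 1 and 2 below, where 39.7% and 25.7% of all genes compared did. The median difference was 0.18, against 0.07 over all genes. Of the 12, 9 were higher at P2 as deposited, where 57.7% of all genes were. Under median-of-ratios scaling and under quantile normalization 8 were, where the median of all genes was -0.05 under both. At P1, 9 were higher as deposited, where 57.6% of all genes were. Under median-of-ratios scaling 7 were higher at P1 and under quantile normalization 6, where the medians of all genes were -0.05 and -0.04.

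Of 27 other ER genes listed, 21 were higher at P2 than at P0 and 6 lower. At the threshold 0 rose and 0 fell, where 6.72% and 1.16% of all genes compared did. The median of the list was 0.19. Over all genes compared, 57.7% were higher and the median was 0.07. Under median-of-ratios scaling 16 were higher and 11 lower, where the median of all genes was -0.05. Pdia3, a disulfide isomerase that works with calreticulin, had the largest difference of these (0.78), at 423, 641 and 729 FPKM. P4hb, another disulfide isomerase, measured 336, 463 and 461 FPKM, Derl3, an ER degradation factor, 3.32, 7.71 and 5.48 FPKM, and Ero1lb, an ER oxidase gene, 0.549, 0.967 and 1.05 FPKM. At P1 against P0, Derl3 was the 1 gene that rose among the 26 of the list compared, where 4.12% of all genes rose. The ERSE stood in 5 of 21 of these genes with a window, and the CARE core in 0.

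All 12 synthetases were lower at P2 than at P0, where 42.3% of all genes compared were, and 12 of 12 were lower at P1, where 42.4% were. In each of the 12 the interval lay below 1 in both comparisons, where this held for 22.6% of all genes at P1 and 25.7% at P2. No synthetase reached the threshold: the differences at P2 ran from -0.78 to -0.23, with a median of -0.52 against 0.07 over all genes. Summed over the 12, the level was 2400 FPKM at P0, 1921 at P1 and 1666 at P2, so that P2 had 69.4% of the sum at P0.

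Yars, the tyrosyl-tRNA synthetase, had the largest difference, at 216, 153 and 125 FPKM, with a ratio of P2 to P0 of 0.581 (interval 0.556 to 0.606). Tars (threonyl) measured 104, 77.3 and 65.2 FPKM, with a ratio of 0.625 (interval 0.600 to 0.650), and Nars (asparaginyl) measured 180.3, 135 and 113 FPKM, with a ratio of 0.627 (interval 0.608 to 0.647). The intervals of Tars and Nars overlap almost fully, so their order is not resolved.

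A middle group had ratios of P2 to P0 between 0.660 and 0.703. Iars (isoleucyl) measured 254, 207 and 167 FPKM. Aars (alanyl), the most abundant of the 12, measured 477, 353 and 323 FPKM. The exons of Aars share 1326 bases with Exosc6, which is listed at 0 in all 3 libraries, so reads from the shared bases cannot be told apart. Sars (seryl) measured 185, 141 and 126 FPKM and Lars (leucyl) 111, 99.7 and 77.8 FPKM.

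The smallest differences were in Gars (glycyl), Cars (cysteinyl), Mars (methionyl), Eprs, the fused glutamyl and prolyl enzyme, and Wars (tryptophanyl). Gars measured 186, 153 and 134 FPKM, Cars 186, 165 and 136 FPKM and Mars 199, 169 and 151 FPKM. Eprs measured 210.5, 195 and 168 FPKM. Wars measured 92.3, 73.8 and 78.7 FPKM and was the 1 synthetase not lowest at P2, where its ratio to P1 was 1.07 (interval 1.01 to 1.12). Of all genes compared, 53.8% were higher at P2 than at P1 and 24.1% had an interval above 1. The other 11 were lower at P2 than at P1, each with an interval below 1. Of all genes compared, 46.2% were lower and 18.9% had such an interval.

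**Figure D4:**
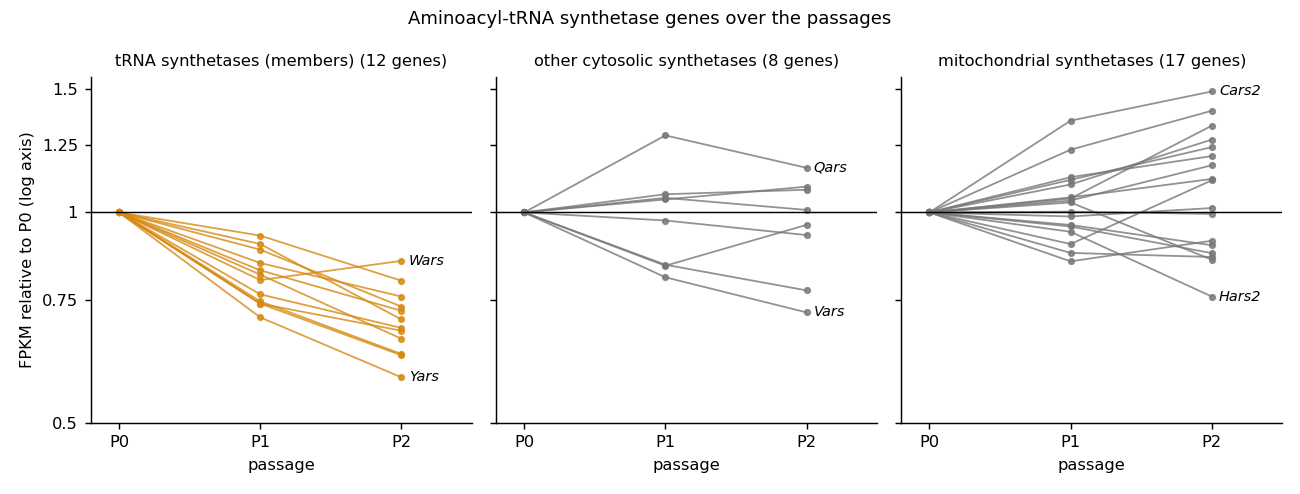
FPKM relative to P0 (log axis) at P0, P1 and P2 for the 12 member synthetases (orange), the 8 other cytosolic synthetases and the 17 mitochondrial ones (grey), 1 line per gene; the lowest and highest gene at P2 are named. All 12 orange lines lie below 1 at both later passages, while the grey lines lie on both sides of it.

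The 8 cytosolic synthetase genes outside the members had values on both sides of P0. At P2, 4 were lower and 4 higher than at P0, where 42.3% of all genes were lower. Under median-of-ratios scaling 7 of the 8 were lower and under quantile normalization 5, where the median of all genes was -0.05 under both. All 12 members were lower under every scaling tried. The median difference of the 8 was -0.02. Vars (valyl) measured 409, 330.5 and 294 FPKM, with a ratio of P2 to P0 of 0.719 (interval 0.700 to 0.739), and Farsb, a subunit of the phenylalanyl enzyme, 126, 106 and 97.1 FPKM. The differences of both, -0.47 and -0.37, lie inside the range of the members. Qars (glutaminyl) measured 239, 308 and 277 FPKM and Rars (arginyl) 228, 238 and 249 FPKM, both higher at P2. The summed level of the 8 at P2 was 96.1% of that at P0.

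Aimp2 and Aimp1, scaffold proteins of the multi-synthetase complex, measured 40.4, 47.2 and 55.7 FPKM and 107, 112 and 125 FPKM. The third, Eef1e1, measured 89.0, 81.9 and 91.6 FPKM. Aimp2 shares 487 exon bases with Eif2ak1 on the opposite strand, so reads of these 2 genes cannot be told apart there. Of 17 mitochondrial synthetases, which charge tRNA for the organelle's own ribosomes, 10 were higher and 7 lower at P2 than at P0, with a median of 0.14. This count is near the 57.7% of all genes compared that were higher. Under quantile normalization 10 were lower, where the median of all genes was -0.05. Cars2 measured 29.6, 40.1 and 44.1 FPKM, Pars2 10.3, 10.8 and 13.8, Mars2 2.38, 2.93 and 3.33 and Hars2 21.3, 20.02 and 16.2. The CARE core stood in 0 of 5 other cytosolic synthetases with a window, 0 of 14 mitochondrial ones and 0 of 3 scaffold genes. Whether members and other synthetases differ was not tested, as genes are not replicates.

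**Figure D5:**
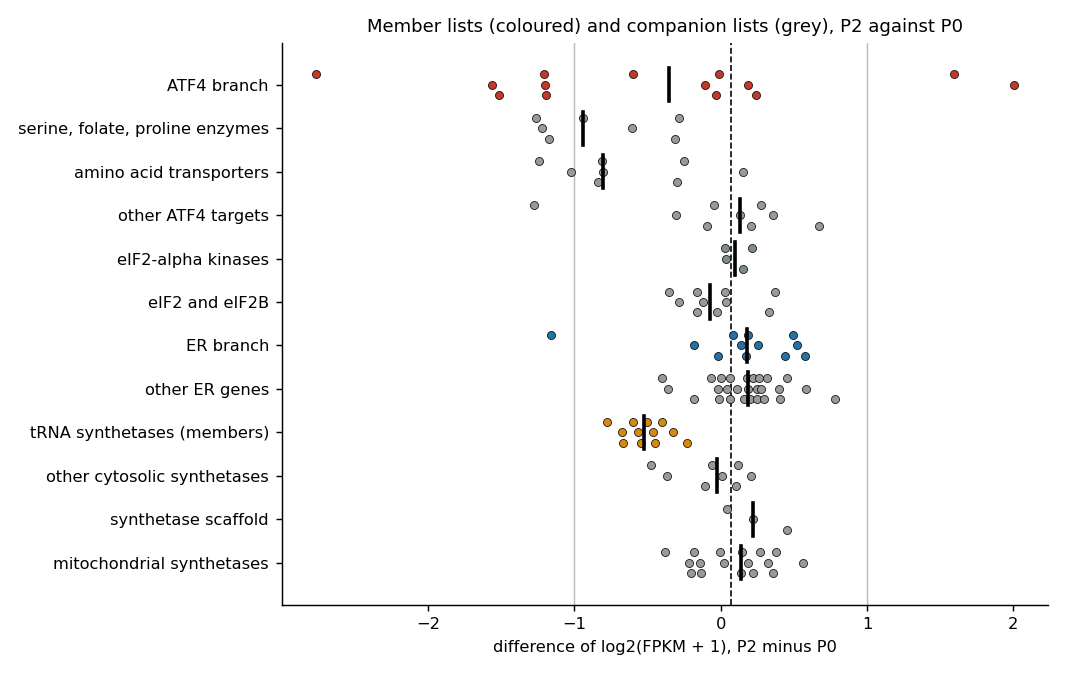
Difference of log2(FPKM + 1), P2 minus P0, for each compared gene (points) of the 4 member lists (coloured) and 8 companion lists (grey), with list medians as black bars, the median of all genes (0.07) dashed and the threshold of 1 as grey lines. The synthetase members sit together between -0.78 and -0.23, and the serine, folate and proline enzymes and the amino acid transporters sit mostly further left.

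Outside the members, other genes known to respond to ATF4 did not all move alike. The 7 serine, folate and proline enzymes were all lower at P2 than at P0, with a median of -0.94, and 3 fell, where 42.3% of all genes compared were lower and 1.16% fell. Mthfd2, the mitochondrial folate dehydrogenase, measured 119, 62.8 and 49.2 FPKM, Pycr1 and Aldh18a1 of proline synthesis 25.5, 14.9 and 10.4 FPKM and 82.9, 45.3 and 36.3 FPKM, and Psat1 of serine synthesis 410.2, 267 and 213 FPKM. Of 9 listed amino acid transporters, 8 were compared, 7 of these were lower, 2 fell and the median was -0.81, against the same shares of all genes. Slc6a9, the glycine transporter, measured 4.001, 2.04 and 1.12 FPKM, and Slc1a4, a neutral amino acid carrier, 9.80, 5.44 and 4.32 FPKM. Slc7a3, a cationic carrier, measured 119.6, 111 and 66.4 FPKM and Slc1a5, a glutamine carrier, 113, 93.3 and 64.4 FPKM. Slc38a2 was the 1 compared transporter higher at P2, at 72.5 FPKM against 65.3 at P0.

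A mixed list of 10 further targets had a median of 0.13 over the 9 compared. Gpt2, a mitochondrial alanine transaminase, fell and measured 46.3, 27.4 and 18.5 FPKM. Gdf15, a secreted stress cytokine also known as a p53 target, measured 3.003, 3.82 and 5.37 FPKM, Sqstm1, an autophagy receptor, 85.8, 104 and 110.4 FPKM, and Jdp2, a transcriptional repressor, 2.49, 1.92 and 1.83 FPKM. Genes of eIF2, its exchange factor eIF2B and their regulators had a median of -0.07 at P2 against P0. At the threshold 0 of these 10 rose and 0 fell, where 6.72% and 1.16% of all genes compared did. Among genes with a window, the CARE core stood in 1 of 7 serine, folate and proline enzymes, all 7 of which were lower at P2, in 2 of 6 transporters, in 2 of 7 of the mixed targets and in 1 of 7 eIF2 genes. Eif2b2 and Eif2b1 measured 80.1, 101 and 104 FPKM and 119, 132 and 151 FPKM, and Eif2s2 and Ppp1r15b 409.9, 315 and 321 FPKM and 31.6, 25.7 and 25.7 FPKM.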

How the data were processed

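The deposited table holds FPKM values per gene for 3 libraries, computed by the authors. Per the submitters' processing notes, Bowtie2 2.0.6, TopHat2 2.0.9 and build mm9 were used; for the counting program, its annotation and the strand, the sources used here give nothing. Symbols and chromosomes came from GENCODE release M21 by gene ID, and promoter sequences from RefSeq (GRCm38.p6), a later build than mm9. The motif sites of 1 member promoter are not reported here, though the counts include that gene. Members and lists were chosen with earlier results of these data known.

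Whole reads were recovered by finding the library totals (23213528, 18059914 and 22405670) at which FPKM times gene length gives whole numbers. Of 19454 IDs above 0 in all 3 libraries, 19454 gave whole reads within a relative tolerance of 1e-09. At the mean transcript length alone 14504 did, and 0 did with totals moved by 1%. Recovered reads summed to 100.33 to 100.35% of the totals, and 3 reads on a gene of 2 kb are worth 0.0646, 0.0831 and 0.0669 FPKM at P0, P1 and P2. Intervals are exact conditional (Clopper-Pearson, 95%); without molecular identifiers, PCR copies count as separate reads.

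Differences are of log2(FPKM + 1), with a threshold of 1 and a floor of FPKM 1. The calls at the threshold and the intervals were tested on simulated reads, with counting error as the only variation. The recovery of reads, the scalings and the motif search were not part of that test. All 43 members are named, with Pold3, Pou5f1, Nanog, Sox2 and up to 4 genes of each of 8 companion lists with the largest P2 to P0 difference. Slc38a2, Exosc6, Nup62, Tmem189, Sparc, Col4a1, Vim, Postn, S100a4, Col1a1, Thy1 and Timp3 were named after their values were seen. So were Esrrb, Fgf4, Tfap2c, Krt8, Krt18, Tubb3, Neurod1, Sox11, Sox1, Pax6, Lama1 and Loxl1. Computations used Python 3.11.15, pandas 2.3.3, numpy 2.4.6, matplotlib 3.10.9 and scipy 1.17.1.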

Additional observations from a re-analysis of the deposited data

How the results depend on the processing

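In all 7 other settings were run: a floor of FPKM 5, no floor, a pseudocount of 0.1, median-of-ratios scaling, rescaling to a sum of 1000000, quantile normalization and leaving out short RNA genes and the authors' own models. Median-of-ratios scaling moved the median of all genes by -0.11 at P1 and -0.12 at P2 against P0, and quantile normalization by -0.10 and -0.12. Median-of-ratios scaling gave medians of -0.42 at P1 and -0.66 at P2 for the synthetases, -0.48 at P2 for the ATF4 branch and 0.0525 at P2 for the ER branch, before allowing for that shift. It also raised the members that fell at P1 to 5, adding Stc2 (-1.10) and Herpud1 (-1.03). Stc2 also fell at P1 with a pseudocount of 0.1 (-1.14), after rescaling (-1.04) and after quantile normalization (-1.10), which gave 4 members each. The ATF4 branch median was -0.66 at P1 and -0.60 at P2 with a floor of FPKM 5, -0.54 at P2 with no floor, -0.59 after rescaling and -0.60 after quantile normalization. With a pseudocount of 0.1, 1 member, Chac1, fell at P2 against P1 (-1.12). The cause was not tested. Under these settings, no called member that was still compared changed sign or lost its call. Among called genes of the whole table, the share that rose was 74.9% at P1 and 70.5% at P2 under quantile normalization, against 88.2% and 85.3% as deposited. No paired analysis was possible because each passage has 1 library, and no library could be left out for the same reason.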
